A study of Mus musculus with 3 samples.

Results

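The genes described here are the interferon response and antigen presentation genes of mouse midbrain, chosen by symbol: the IFIT, IFI, OAS, IRF, STAT and guanylate binding protein families, all H2 symbols of the major histocompatibility complex, and single genes such as B2m, Tap1, Psmb8, Isg15, Bst2 and Mx1. The rule found 125 of the 49585 genes in the deposited tables. Of these, 95 passed the filter on low counts and were tested, 11 had no count in any library, and the remaining untested members had at most 10 counts in a library. The study sequenced total RNA from frozen mid-brain of C57BL/6 mice at postnatal day 3 in 3 libraries. The WT group was 1 library of wild-type genotype. The FGR group was 2 libraries whose genotype is given only as FGR, with no allele, promoter or agent named, and nothing in the labels says whether they came from separate animals or litters. P-values therefore measure only the spread between these samples, which came from the FGR pair, and any peculiarity of the single WT library cannot be told apart from the group.

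Interferons are secreted proteins that cells release on sensing viral nucleic acid. Through their receptors and the JAK kinases they activate STAT and IRF transcription factors, which bind the interferon-stimulated response element and the gamma-activated site near genes that block viral replication, and they raise the major histocompatibility complex molecules that show peptides to T cells. In healthy brain these genes are kept low, and microglia, border macrophages and endothelial cells are among the cells that express them.

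Total counts were between 46240262 and 58444481 per library, and the members together took 0.0427% of the WT counts and 0.0356% and 0.0378% of those in FGR replicates 1 and 2. Levels are given as CPM, the read count scaled to the size of its library, with TMM factors that set the libraries on a common scale, and 3 counts corresponded to 0.0517 to 0.0656 CPM. Midbrain identity was present in all libraries: En2, expressed at the junction of midbrain and hindbrain, was at 20.9 CPM in WT against 40.1 and 37.4 CPM in the FGR libraries, and Th, of dopamine synthesis, was at 14.1, 10.2 and 11.1 CPM. Of 15 midbrain markers 5 were called higher and 2 lower (edgeR, adjusted p under 0.05), against 1.66% and 2.59% of all genes. They summed to 324.1 CPM in WT against 393.96 and 349.9 CPM in the FGR libraries. Of 14 tested markers of hypothalamus and ventral forebrain, which lie outside the labelled tissue, 11 were called lower. That list summed to 58.8 CPM in WT against 8.59 and 9.32 CPM in the FGR libraries. The part of that difference in dissection or makeup in the results below was not tested.

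Promoters that carry the interferon-stimulated response element are shown for 7 members, because genes that hold this element lay on both sides of WT. The windows below are from RefSeq promoters (250 bases before to 50 after the start of transcription, build GRCm38.p6), which matched 90 of the 125 members. Capitals mark the core of the element, searched as GAAA, any 2 bases and GAAA, or its reverse complement on the other strand. Each is written 5′ to 3′ on the strand of its gene.
Ifit3, chr19:34583348-34583441, plus strand: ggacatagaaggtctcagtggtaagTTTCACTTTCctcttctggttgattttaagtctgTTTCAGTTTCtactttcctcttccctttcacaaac
Ifit1, chr19:34640760-34640838, plus strand: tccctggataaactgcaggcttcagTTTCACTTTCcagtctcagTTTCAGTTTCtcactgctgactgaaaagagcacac
Bst2, chr8:71537562-71537627, minus strand: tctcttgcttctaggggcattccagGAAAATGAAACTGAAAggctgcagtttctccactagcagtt
Isg15, chr4:156200850-156200921, minus strand: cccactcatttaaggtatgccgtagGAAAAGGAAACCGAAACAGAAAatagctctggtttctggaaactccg
Rsad2, chr12:26456538-26456597, minus strand: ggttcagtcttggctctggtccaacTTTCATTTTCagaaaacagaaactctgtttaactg
Gbp5, chr3:142496744-142496803, plus strand: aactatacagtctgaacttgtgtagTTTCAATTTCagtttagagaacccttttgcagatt
B2m, chr2:122147523-122147582, plus strand: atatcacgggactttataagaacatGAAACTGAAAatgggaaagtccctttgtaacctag
The Ifit3 window was identical over its 94 bases to that of its neighbour Ifit3b. The Ifit1 window is also the upstream window of Ifit1bl2, which is transcribed the other way. In Bst2 and Isg15 overlapping copies of the core run together, 2 in Bst2 and 3 in Isg15.

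Over all members, 5 of 95 tested genes (5.26%) fell in FGR midbrain and none rose. Those that fell were Ifit2, Ifit3, Bst2, Ifi27 and H2-Q2 (edgeR's quasi-likelihood test, adjusted p under 0.05), and 3 of them changed at least 2-fold. Of all 25561 genes tested, 4.25% were called, 2.59% lower and 1.66% higher. DESeq2, whose own filter left an adjusted p for 37 members, called 1 of these lower (Ifit2, 2.70%), against 1.40% of all genes with such a p. At an unadjusted p under 0.05, 20 members were lower and 0 higher, against 9.92% and 8.41% of all genes, and DESeq2 and limma-voom likewise called 0 members higher. Both FGR libraries lay below WT for 59 members (62.1%) and above it for 20 (21.1%), where the shares over all genes were 38.2% and 38.5%. The median log2 fold change of the tested members was -0.22 and that of all genes 0.005.

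The filter lets a gene in on the strength of 1 library, so 6 members (Gbp8, H2-Aa, H2-Q5, Ifi211, Ifi47 and Stat4) were tested on account of WT alone and 2 (Isg20 and Oas1b) on account of the FGR libraries alone. Among the 49 members with a mean of at least 1 CPM, the 5 that fell made up 10.2%, against 3.40% of all genes at that level. There both FGR libraries were below WT for 34 members and above it for 8, against 37.6% and 41.3% of all genes, and the median log2 fold change was -0.21. At a mean of at least 1 CPM, members lower than WT thus outnumbered those higher, while few single genes passed the test.

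**Figure D1:**
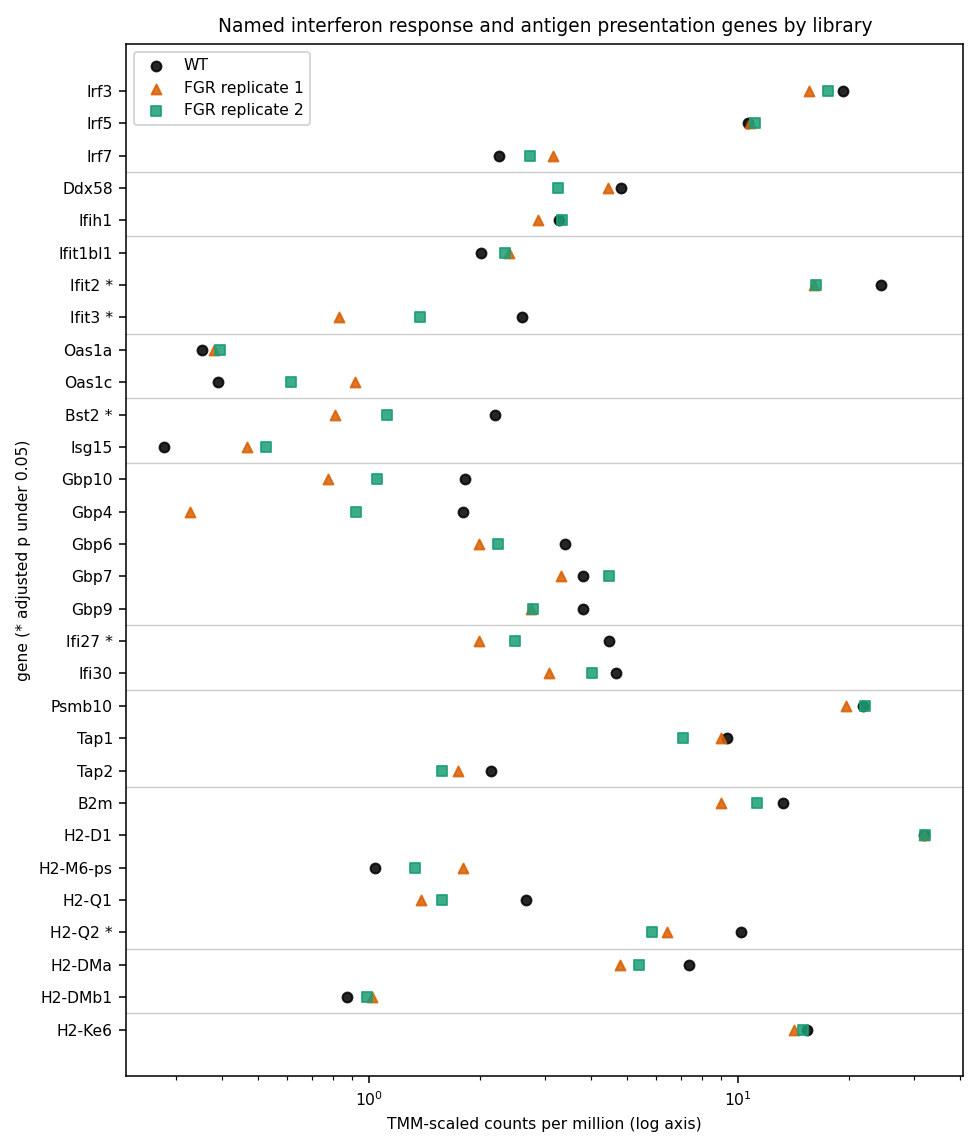
Level of each named and tested gene outside the STAT family in each of the 3 libraries (x axis, TMM-scaled CPM on a log scale; y axis, genes grouped by role; an asterisk marks an adjusted p under 0.05). The 5 genes with an asterisk have both FGR libraries below WT, while Irf5 and H2-D1 have all 3 libraries close together.

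The STAT proteins carry the signal from the receptor to the nucleus. Stat2, of the type I interferon pathway, was at 11.7 CPM in WT against 10.7 and 10.8 CPM in FGR. Stat3, which answers to cytokines of the interleukin family as well, was the most abundant member per length among the STAT genes, at 53.5 CPM in WT against 52.1 and 56.6 CPM in FGR, so WT lay between the FGR libraries. Stat5b was at 27.1, 29.6 and 28.2 CPM. Stat4, a factor of lymphocytes, had only 26 counts in WT and 10 and 7 in FGR. Of the 7 STAT genes 0 were called by edgeR or limma-voom, or by DESeq2 among the 6 with an adjusted p. In edgeR 2 were lower at an unadjusted p under 0.05, against 9.92% of all genes lower and 8.41% higher. Stat4 was among these 2 but was tested on account of WT alone.

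None of the 9 IRF genes were called by edgeR or limma-voom, nor by DESeq2 among the 8 with an adjusted p, and 0 had an unadjusted p under 0.05 in any of them. Irf3, the constitutive factor that starts interferon production, was at 19.3 CPM in WT against 15.6 and 17.5 CPM in FGR. Irf9, which binds DNA in a complex that holds Stat2, was at 11.8, 11.4 and 11.2 CPM. Irf7, which is itself induced by interferon, went the other way: 2.25 CPM in WT against 3.16 and 2.73 CPM in FGR (log2 fold change 0.39 ± 0.22, adjusted p = 0.370). Irf8, needed for microglia and other myeloid cells, was at 2.58 CPM in WT against 2.05 and 2.54 CPM in FGR. Irf5 was at 10.6, 10.8 and 11.1 CPM. Exons of Irf3, Irf5 and Irf7 overlap those of Bcl2l12, Tnpo3 and Phrf1 on the other strand in GENCODE M21, and exons of Irf9 those of Rnf31 on its own strand, so without knowledge of the strand used in counting some of their reads may belong to those genes.

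The cytosolic sensors of viral RNA were low and uncalled. Ddx58, which encodes RIG-I, was at 4.83 CPM in WT against 4.43 and 3.26 CPM in FGR (adjusted p = 0.434), and Ifih1, which encodes MDA5, at 3.27, 2.88 and 3.33 CPM. Dhx58, the regulator LGP2, was at 0.873, 0.828 and 0.809 CPM. Of these 3 genes 0 were called by edgeR or limma-voom, and 0 had an unadjusted p under 0.05 in these tools or in DESeq2, which gave 2 of them an adjusted p.

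The IFIT proteins bind foreign RNA and hold back its translation. Ifit2 (ENSMUSG00000045932.12) had 1314 counts in WT and 932 and 743 in FGR, that is 24.4 CPM against 16.1 and 16.3 CPM, or 16.2 ± 0.132 CPM (SD, n = 2). The FGR libraries were nearly equal and both well below WT: the fall was 1.51-fold (log2 fold change -0.60 ± 0.12, edgeR adjusted p = 0.0105). Ifit2 was called in all 8 alternative analyses that tested it (adjusted p from 8.24e-05 to 0.0305), DESeq2 included. Ifit3 (ENSMUSG00000074896.3) had 140 counts in WT and 48 and 63 in FGR, or 2.60 CPM against 0.828 and 1.38 CPM. The FGR libraries differed from each other more than for Ifit2 but did not reach WT. Its fall was 2.39-fold (log2 fold change -1.26 ± 0.30, adjusted p = 0.0281), and the 6 alternatives that gave it an adjusted p called it too.

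The other 4 IFIT genes were not called, and they did not lie to the same side. Ifit3b, with the same response element window as Ifit3, was at 1.08 CPM in WT against 0.621 and 0.372 CPM in FGR (log2 fold change -1.09, adjusted p = 0.164). Reads of such close copies may have been shared between them in counting. Ifit1 was at 0.576 CPM in WT, between the FGR libraries at 0.345 and 0.656 CPM, although its window carries 2 cores. Ifit1bl1 was at 2.01 CPM in WT against 2.40 and 2.34 CPM in FGR, and Ifit1bl2, on the far side of the Ifit1 window, at 0.409, 0.828 and 0.481 CPM. The 6 genes are neighbours in 1 run (GENCODE M21), so falls of Ifit2 and Ifit3 stood beside uncalled genes with both FGR libraries above WT. Summed over the family, the FGR libraries held 67.8% and 69.1% of the WT level. Ifit2 made up most of each sum: 24.4 of 31.1 CPM in WT, and 16.1 of 21.1 and 16.3 of 21.5 CPM in FGR. The family sum thus mainly gives the level of Ifit2.

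In the OAS family, whose enzymes make the messenger that activates RNase L, 0 of 9 tested genes were called by edgeR or limma-voom and 0 had an unadjusted p under 0.05. DESeq2 gave no OAS gene an adjusted p. Every OAS gene was at or under 1.02 CPM, the level of Oasl2 in WT, in every library. Oas1c was at 0.390 CPM in WT against 0.914 and 0.613 CPM in FGR (log2 fold change 0.98 ± 0.47, adjusted p = 0.290), the highest fitted value of all members. Oas1a was at 0.353, 0.379 and 0.394 CPM. Both FGR libraries lay above WT for 5 OAS genes and below it for 4, where the shares over all genes were 38.5% and 38.2%. Oas1b, among those above, was tested on account of the FGR libraries alone. The family summed to 100.4% and 104.3% of WT.

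Bst2 (ENSMUSG00000046718.8), which encodes tetherin, a membrane protein that holds budding virions on the cell, had 118 counts in WT and 47 and 51 in FGR. On the scaled measure this was 2.19 CPM against 0.810 and 1.12 CPM, a 2.29-fold fall (log2 fold change -1.20 ± 0.29, adjusted p = 0.0331). Isg15, the ubiquitin-like modifier that interferon induces strongly, was at 0.279 CPM in WT against 0.465 and 0.525 CPM in FGR, from 15, 27 and 24 counts (adjusted p = 0.487). Usp18, the protease that removes that modifier and damps the receptor, was at 0.613, 0.362 and 0.481 CPM. Rsad2, which encodes viperin, was at 0.483, 0.672 and 0.897 CPM. Bst2 was thus the only gene called among the 7 of its group. Isg15 and Rsad2 lay above WT in both FGR libraries without passing the test. Isg20 did so too, but it was tested on account of the FGR libraries alone.

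The guanylate binding proteins are GTPases, induced above all by interferon gamma, that attack membranes around intracellular microbes. Of 10 genes 0 were called by edgeR, with 6 at an unadjusted p under 0.05, all lower, and limma-voom called 1 (Gbp4). Of all genes, 9.92% were lower at that unadjusted p in edgeR. One of the 6, Gbp8, was tested on account of WT alone. DESeq2 gave an adjusted p to only 3 of the 10, Gbp4 not among them, and called 0. Gbp4 had 97 counts in WT and 19 and 42 in FGR, or 1.80 CPM against 0.328 and 0.919 CPM. Its log2 fold change was -1.58 ± 0.42 with an adjusted p of 0.0521, just outside the threshold, and it was called in 5 of 6 alternative analyses (adjusted p = 3.65e-05 to 0.135). The estimate was -0.98 without FGR replicate 1 and -2.45 without FGR replicate 2, so replicate 1 carried the larger difference. Gbp10 was at 1.82 CPM in WT against 0.776 and 1.05 CPM in FGR (adjusted p = 0.0805), and Gbp6 at 3.40, 1.98 and 2.23 CPM (adjusted p = 0.0829).

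Gbp genes lie in separate clusters, and the values are given for each. The Gbp4 cluster holds Gbp4, Gbp6, Gbp8, Gbp9, Gbp10 and Gbp11. In it 5 of 6 genes (4 of 5 without Gbp8) were below WT in both FGR libraries, against 38.2% of all genes. That cluster summed to 11.4 CPM in WT against 5.90 and 7.37 CPM in FGR. The cluster of Gbp2, Gbp3, Gbp5 and Gbp7 summed to 7.64 CPM in WT against 6.10 and 7.33 CPM in FGR. Gbp7, its most abundant gene per length, was at 3.81 CPM in WT, between the FGR libraries at 3.31 and 4.46 CPM, and Gbp5 was at 0.929, 0.431 and 0.503 CPM. The difference between the clusters was not tested, and exons of Gbp4, Gbp8 and Gbp9 overlap in the annotation, so their counts are not independent.

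**Figure D2:**
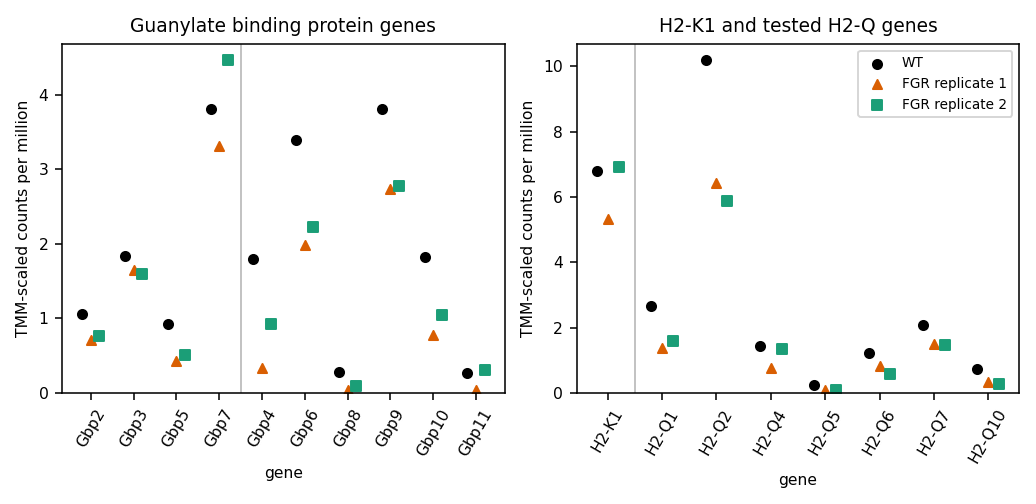
Levels in each library (y axes, TMM-scaled CPM from 0) of the 10 guanylate binding protein genes, split by a grey line into the Gbp2 and the Gbp4 clusters, and of H2-K1 beside the 7 tested H2-Q genes. The 6 H2-Q genes other than H2-Q5, which was tested on account of WT alone, have both FGR libraries below WT, against 38.2% of all genes. For H2-K1 and Gbp7 WT lies between the FGR libraries.

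The IFI symbols name unrelated proteins that were found as interferon-induced. Ifi27 (ENSMUSG00000064215.13), a small hydrophobic membrane protein gene of the type I response, had 241 counts in WT and 115 and 114 in FGR. It fell 2.01-fold, from 4.48 CPM to 1.98 and 2.49 CPM (2.24 ± 0.362 CPM, SD, n = 2; log2 fold change -1.01 ± 0.21, adjusted p = 0.0134). DESeq2 did not call it (adjusted p = 0.255, the highest of 8 alternatives that ranged down to 2.63e-05). Its neighbour Ifi27l2a was at 0.446 CPM in WT against 0.276 and 0.219 CPM in FGR. Ifi30, a lysosomal thiol reductase that prepares antigen for class II, was at 4.66 CPM in WT against 3.07 and 4.03 CPM in FGR (adjusted p = 0.304). The DNA sensor genes Ifi202b to Ifi214 were scarce: only Ifi203, Ifi204, Ifi207 and Ifi211 passed the filter, and the most abundant of them per length, Ifi204, was at 0.762 CPM in WT against 0.328 and 0.547 CPM in FGR. Beside Ifi27, 0 of the 10 tested IFI genes had an unadjusted p under 0.05.

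**Figure D3:**
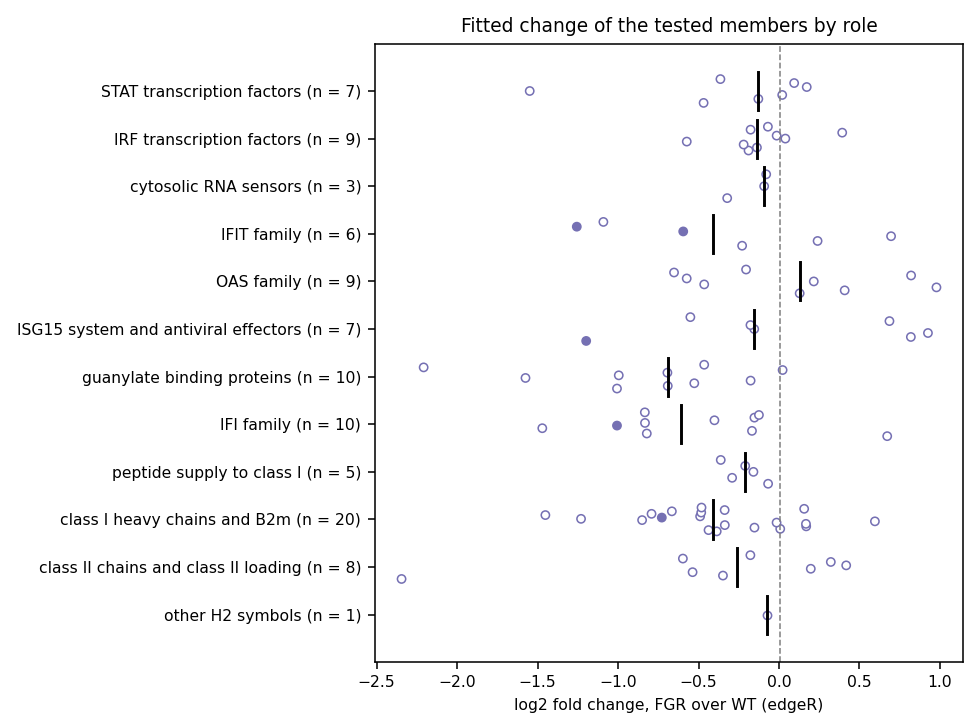
Fitted log2 fold change of FGR over WT (x axis) for each of the 95 tested members by role (y axis); filled points passed the test, black bars are role medians and the dashed line is the median of all genes, 0.005. The medians of the guanylate binding proteins (-0.69) and the IFI family (-0.61) lie lowest, and that of the OAS family (0.13) lies above the dashed line. Gbp8, Ifi211 and Ifi47 were tested on account of WT alone and Oas1b on account of the FGR libraries alone. The places of the IFI and OAS medians thus depend in part on the filter. Without Gbp8 the guanylate binding protein median was still -0.69.

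Peptides reach class I molecules through the immunoproteasome and the Tap1 and Tap2 transporter. Of these 5 genes 0 were called by edgeR or limma-voom and 0 had an unadjusted p under 0.05. DESeq2 gave an adjusted p to 2 of them and called 0. Psmb10, an immunoproteasome subunit, was at 21.9 CPM in WT against 19.6 and 22.1 CPM in FGR. Per length its mean level over the libraries was 12.4 CPM per kilobase, while its partners Psmb8 and Psmb9 were at 0.435 and 0.416 CPM per kilobase. Tap1 had 502 counts in WT against 522 and 324 in FGR (log2 fold change -0.21, adjusted p = 0.554), and Tap2 was at 2.14, 1.74 and 1.58 CPM. Exons of Psmb9 and Tap1 overlap on opposite strands.

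B2m, the light chain that all class I molecules share, was at 15.4 CPM per kilobase in WT and 10.4 and 13.1 in FGR. It had the highest level per length of all members in WT and FGR replicate 2, and H2-D1 had it in FGR replicate 1. In CPM it was at 13.2 in WT and 8.98 and 11.3 in FGR, with a log2 fold change of -0.39 ± 0.15 that did not pass (adjusted p = 0.191). The classical heavy chain gene H2-D1 was at 31.9 CPM in WT against 32.0 and 32.2 CPM in FGR (log2 fold change 0.01 ± 0.09, adjusted p = 0.977). H2-K1, the other classical gene, was at 6.78 CPM in WT, between the FGR libraries at 5.33 and 6.91 CPM. Thus neither classical heavy chain gene had both FGR libraries below WT.

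The non-classical genes of the Q region, which encode class I molecules of restricted expression, lay lower. H2-Q2 (ENSMUSG00000091705.8) had 548 counts in WT and 372 and 268 in FGR, or 10.2 CPM against 6.41 and 5.86 CPM. It fell 1.66-fold (log2 fold change -0.73 ± 0.15, adjusted p = 0.0125), a call that DESeq2 did not make (adjusted p = 0.143, the highest of 8 alternatives that ranged down to 0.000152). H2-Q1 was at 2.66 CPM in WT against 1.38 and 1.58 CPM in FGR (adjusted p = 0.0637). H2-Q5 (13, 5 and 4 counts) was tested on account of WT alone. The other 6 tested H2-Q genes were below WT in both FGR libraries, against 38.2% of all genes. Their fitted log2 fold changes ran from -1.23 to -0.48. The H2-Q genes summed to 18.5 CPM in WT against 11.3 and 11.2 CPM in FGR. These genes are near-identical in places, so reads may have been shared or dropped among them, and they are not independent measurements.

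Genes of the T region were mixed. H2-T22 was at 11.2 CPM in WT against 7.76 and 9.95 CPM in FGR, and H2-T24 at 7.78, 5.65 and 5.49 CPM (adjusted p = 0.0940). H2-T23, which encodes the ligand of an inhibitory receptor of natural killer cells, was at 3.47 CPM in WT against 3.91 and 3.83 CPM in FGR. In the M region, H2-M5 was at 4.61, 4.46 and 4.66 CPM and the pseudogene H2-M6-ps at 1.04, 1.79 and 1.33 CPM (adjusted p = 0.333). Most of the H2-M10 genes, which belong to the vomeronasal organ, had no counts.

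Class II genes, which professional antigen-presenting cells use, were nearly silent at this age. The chain genes H2-Aa, H2-Ab1, H2-Eb1 and H2-Eb2 together had 83 counts in WT and 72 and 64 in FGR. H2-Aa had 11 counts in WT and 3 and 1 in FGR (adjusted p = 0.291), and it was tested on account of WT alone. By contrast H2-DMa, a subunit of the molecule that edits class II peptides, had 396 counts in WT and 277 and 246 in FGR, or 7.36 CPM against 4.78 and 5.38 CPM (log2 fold change -0.54 ± 0.16, adjusted p = 0.0757). Its partners H2-DMb1 and H2-DMb2 had WT levels of 0.873 and 0.669 CPM. Both were above that in each FGR library, with 0.984 and 0.853 CPM in replicate 2, and neither was called. Exons of H2-DMa overlap those of Brd2 on the other strand, so its count may include reads of Brd2. H2-Ke6, which shares the prefix but encodes a hydroxysteroid dehydrogenase, was at 15.4, 14.2 and 15.1 CPM, and the pseudogene H2-T-ps had 7, 5 and 0 counts.

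The response element core was found, on either strand, in the promoters of 32 of the 90 matched members (35.6%) and in 3.99% of the 27025 genes of the same table. The gamma-activated site, searched as TTCNNNGAA on either strand, was in 16.7% of members and 9.55% of all genes. By role, the core was in 5 of 6 IFIT genes, all 4 matched guanylate binding protein genes, 4 of 8 matched OAS genes and none of the class II or peptide supply genes. Of the genes that fell, Ifit3 and Bst2 held it, Ifit2 and H2-Q2 did not within these bases, and Ifi27 is not in the table. The 27 tested members with the core had a median log2 fold change of -0.18, with 2 called lower, 16 below WT in both FGR libraries and 7 above. The 40 tested members without it had a median of -0.18 too, with 2 called lower, 23 below and 9 above. Over all genes the shares were 2.59% called lower, 38.2% below and 38.5% above. Stat4 and Ifi211, with the core, and H2-Aa and Ifi47, without it, were tested on account of WT alone. Isg20, without the core, was tested on account of the FGR libraries alone. These counts and medians include those genes. Genes with the core thus lay on both sides of WT, more of them below it. Of those printed above, Bst2 and Ifit3 fell, and Gbp5 and B2m were below WT in both FGR libraries without passing the test. Isg15 and Rsad2 were above WT in both, and WT lay between the FGR libraries for Ifit1.

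The rest of the pathway was read from lists of 92 other genes, of which 78 were tested. Of these 4 fell (5.13%, against 2.59% of all genes) and 1 rose (1.28%, against 1.66%). Among 25 interferons, receptors and kinases, edgeR called 0 of 15 tested (3 at an unadjusted p under 0.05), and limma-voom called 0 as well, as did DESeq2 among the 14 to which it gave an adjusted p. Ifnb1, Ifna2, Ifne, Ifnl2 and Ifnl3 had no counts in any library, and Ifna1, Ifna4, Ifnk, Ifnz and Ifng had at most 3 in a library. Receptor genes spanned a wide range and none were called: Ifnlr1, of the type III receptor, had 29, 25 and 28 counts, while Ifnar1 was at 70.7 CPM in WT against 74.05 and 78.6 CPM in FGR, and Ifngr2 at 68.3, 64.9 and 65.9 CPM. Jak1 was at 126.1, 129.6 and 122.5 CPM.

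Among 17 tested genes of nucleic acid sensing, Trex1, a DNA exonuclease that clears cytosolic DNA, rose from 7.93 CPM to 11.2 and 12.2 CPM (log2 fold change 0.56 ± 0.15, adjusted p = 0.0463). Adar, an RNA-editing enzyme, was the most abundant per length in its list and was at 137.3, 145.3 and 140.3 CPM. Among 28 tested further interferon-stimulated genes, Ifitm1, which blocks viral entry, fell from 2.60 CPM to 1.02 and 1.47 CPM (log2 fold change -1.08 ± 0.27, adjusted p = 0.0389). Its relative Ifitm2 was at 12.5, 10.4 and 11.8 CPM, and Ifitm3 at 2.08, 1.24 and 2.65 CPM.

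Among 20 further antigen presentation genes 3 fell. Calr, a chaperone of the endoplasmic reticulum that also serves class I peptide loading, was at 421.5 CPM in WT against 275.4 and 279.4 CPM in FGR (log2 fold change -0.60 ± 0.09, adjusted p = 0.00136). Pdia3, its partner in that complex, fell from 62.5 CPM to 52.6 and 47.8 CPM (adjusted p = 0.0263). Fcgrt, the neonatal Fc receptor, fell from 17.2 CPM to 8.43 and 11.3 CPM (log2 fold change -0.81 ± 0.16, adjusted p = 0.0115). Canx, another chaperone, was at 405.8, 367.4 and 369.9 CPM (adjusted p = 0.461). Calr and Pdia3 also serve the folding of secreted proteins at large. Of the 5 genes that passed in these lists DESeq2 called 2, Calr and Fcgrt, and gave Ifitm1 no adjusted p. Cd74, the class II invariant chain, was at 1.02 CPM in WT against 0.483 and 0.394 CPM in FGR (adjusted p = 0.121).

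**Figure D4:**
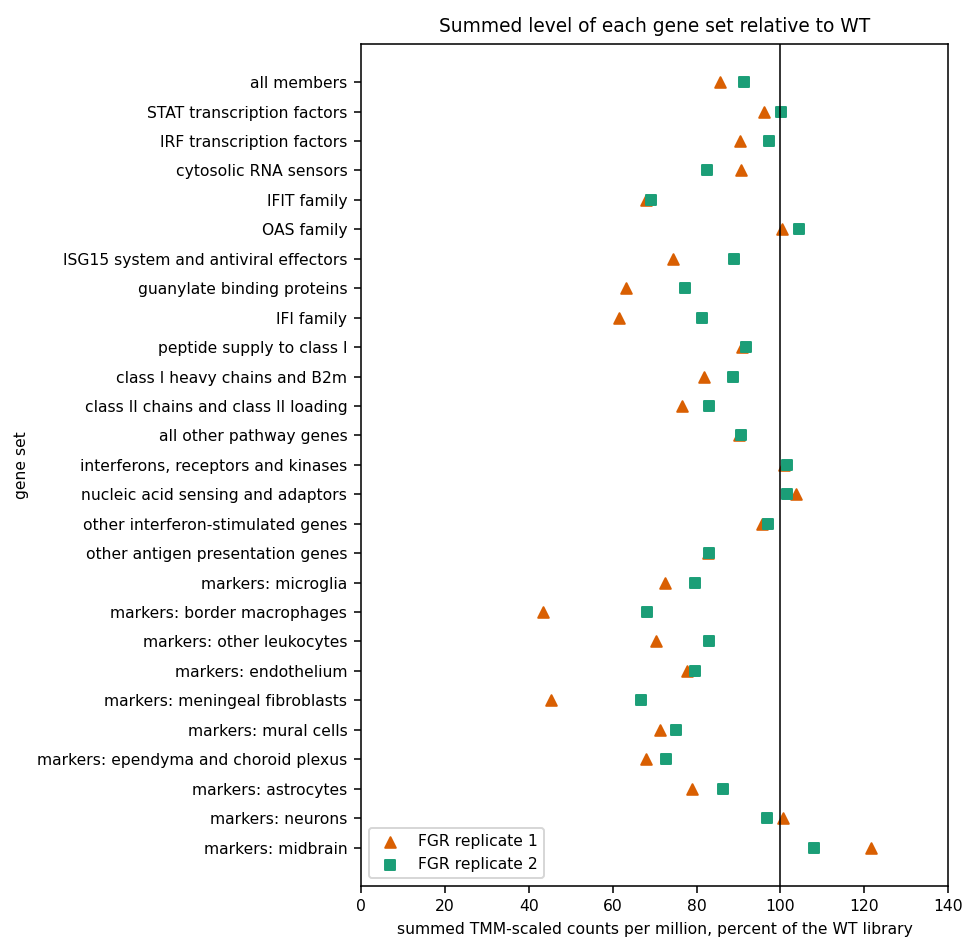
Summed TMM-scaled CPM of gene sets in the FGR libraries as a percent of the WT library (x axis, with the line at 100 for WT). The plot leaves out the group of H2-Ke6 and H2-T-ps. It also leaves out the markers of hypothalamus and ventral forebrain, which summed to 14.6% and 15.9% of WT. The members sum to 85.6% and 91.2% of WT, border macrophage markers to 43.5% and 68.2%, and neuron markers to 100.5% and 96.8%.

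Markers of several cell types were lower in the same libraries. For scale, edgeR called 2.59% of all genes tested lower, and 38.2% of them had both FGR libraries below WT. All 10 border macrophage markers were lower than WT in both FGR libraries, 3 of them called, and summed to 86.6 CPM in WT against 37.7 and 59.1 CPM in FGR. Of 16 microglial markers 14 were lower in both and 4 were called, and they summed to 203.4, 147.5 and 162.02 CPM. Of 14 endothelial markers 12 were lower in both and 4 were called, with 219.2, 170.1 and 174.7 CPM. All 14 meningeal fibroblast markers were lower in both, 10 called, with 1162, 527.6 and 774.8 CPM. Of 12 mural cell markers 4 fell (298.02, 212.4 and 223.95 CPM), of 12 ependymal and choroid plexus markers 3 (58.3, 39.6 and 42.4 CPM) and of 12 astrocyte markers 5 (1974, 1558 and 1704 CPM). Some markers went the other way, with both FGR libraries above WT: 2 endothelial, 2 ependymal and choroid plexus, 1 mural and 1 astrocyte. Of these, 2 endothelial (log2 fold change up to 0.72) and 1 ependymal or choroid plexus marker (2.01) had an unadjusted p under 0.05 in edgeR, and 0 were called. Markers of other leukocytes summed to 6.60, 4.64 and 5.47 CPM, with Ncr1 and Ly6g at 0 in all libraries and 0 of 8 tested markers called by edgeR or limma-voom (DESeq2 gave 1 of them an adjusted p and called 0), also 0 at an unadjusted p under 0.05. Of 12 neuronal markers edgeR called 0 (6 at an unadjusted p under 0.05), DESeq2 1 and limma-voom 2, and they summed to 6408, 6442 and 6200 CPM. The part of these cell types in the lower interferon and antigen presentation genes was not tested, and in bulk tissue fewer cells of a type cannot be told apart from less RNA per cell.

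The FGR libraries were not equally far from WT. Of the 95 tested members, 60 were lower in FGR replicate 1 than in FGR replicate 2 (63.2%, against 50.8% of all genes), and 36 stood in the order WT, FGR replicate 2, FGR replicate 1 from high to low (37.9%, against 19.5% of all genes). Ifit3, Bst2, Ifi27, Gbp4, B2m and H2-DMa were in that order, as were the sums of the macrophage, microglial, endothelial and fibroblast markers. H2-Q2, Tap1 and Ddx58 were lowest in FGR replicate 2 instead, and Ifit2 stood at 16.1 and 16.3 CPM in the FGR libraries. The median log2 fold change of the members was -0.14 without FGR replicate 1 and -0.32 without FGR replicate 2, values that 1 library against 1 cannot test.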

How the data were processed

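Per the submitters' processing notes reads were processed with HISAT2; no version, genome build, counting tool or use of strand is recorded there. The deposited tables hold whole-number read counts, gene lengths and the authors' RPKM values, which were not used further. All genes were tested with edgeR 4.0.16 under R 4.3.3 (TMM scaling, filterByExpr with minimum count 10, two-sided quasi-likelihood F test, Benjamini-Hochberg over 25561 genes, threshold 0.05). The fit had 1 residual degree of freedom, from the FGR pair, so WT was assumed to vary like FGR. SE is the log2 fold change divided by the root of F. CPM per kilobase divides scaled CPM by deposited length. Alternatives used DESeq2 1.42.0, limma 3.58.1, other scalings, filters, a robust fit and removal of each FGR library. The test was tried on simulated data. Promoters and overlaps came from RefSeq GRCm38.p6 and GENCODE M21, matched by symbol or identifier.

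The members, role groups and gene lists were chosen with earlier results of these data known. Named members were all those called, in each role the 2 highest per length and the smallest p-value, and those at a mean of at least 1 CPM with a change of at least 1.5-fold and both FGR libraries on the same side. Named pathway genes were those called and the most abundant per length in each list. The others were chosen after their values were seen. 1 gene that this rule names is not reported here.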

Additional observations from a re-analysis of the deposited data

How the results depend on the processing

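No paired analysis was possible because the WT group has a single library, so the groups share only 1 replicate number. Of the members, 8 were called lower with libraries scaled by their totals, 12 without a filter on low counts, 12 at a threshold of 0.10, 3 under a stricter filter (at least 50 counts in every library, which left 44 members and neither Ifit3 nor Bst2) and 1 in DESeq2, whose own filter gave Ifit3 and Bst2 no adjusted p; the main count was 5. In the remaining 4 alternatives with a test it was 5 or 6, and no member was called higher in any of the 9. The median log2 fold change of members ran from -0.32 to -0.14 when each FGR library was left out, where no test is possible and no count of calls was made. Over all genes the calls numbered 1087, and 2057 without a filter, 357 in DESeq2 and 1952 at the threshold of 0.10. Of the other pathway genes, 4 lower and 1 higher, 7 were called lower without a filter and 2 in DESeq2. Of them 0 were called higher under the stricter filter and in DESeq2, and 2 at the threshold of 0.10. The cause was not tested. Members at a few counts are limited by depth, and differences there were not detectable.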
